A study of Mus musculus with 8 samples.

Results

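Genes of the megakaryocyte and platelet programme were followed in blood-forming cells of mice. They were Pf4, Treml1, Nrgn, Itga2b, Vwf, Gng11, Cavin2, Gp5 and Gp9, so 9 of the 12393 genes measured. A gene was taken in when a probe set of the array was annotated to its symbol alone, and where a gene had several probe sets the one with the highest mean over the 8 arrays gave its value. Cavin2 had 2 probe sets and each of the other genes had 1.

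LSK cells, the marrow fraction without lineage markers and with Sca1 and Kit, came from C57/BL6 mice 12 weeks of age and were measured on 3 arrays. Their titles call them wild-type haematopoietic stem cells (HSC), although an LSK gate also holds multipotent progenitors. Leukaemia-initiating cells (LICs) carried the LSK surface markers and GFP and came from a retroviral mouse model of chronic myeloid leukaemia (CML), 14 days after bone marrow transplantation, also labelled C57/BL6 and 12 weeks. They were wild type (WT, 3 arrays) or lacked Ezh2, the histone H3 lysine 27 methyltransferase (Ezh2 KO, 2 arrays). The sources used here do not name the retroviral oncogene, the way Ezh2 was deleted or any pooling of animals. No transplantation is given for the LSK cells, so both comparisons with them hold transplantation, infection and leukaemia together. The labels call the repeats biological but name no animals, so p-values measure the spread between these arrays.

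Megakaryocytes shed platelets into the blood, and their genes are switched on by GATA and ETS family transcription factors. Platelets stick to a damaged vessel when the glycoprotein Ib-IX-V complex binds von Willebrand factor, and to each other through the integrin αIIbβ3. Part of the mouse stem cell pool already carries transcripts of this lineage, Vwf and Pf4 among them, before any megakaryocyte forms.

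Values are log2 of the deposited intensity and differences are on that scale, so that 1 unit is a factor of 2. The highest mean among 27 bacterial control probe sets that had no spike-in was 4.01 and served as the background level. A gene was called when its adjusted p in the limma fit over all genes was under 0.05. Ezh2 was at 10.77, 10.95 and 11.07 on the LSK arrays, 11.33, 11.44 and 11.26 on the WT LIC arrays and 8.94 and 9.55 on the Ezh2 KO arrays. Where its probe set lies relative to the deletion is not given. Kit was at 10.90 to 11.05 in LSK cells and 9.69 to 10.35 in LICs, and Ptprc, the common leukocyte antigen, at 9.93 to 11.06 on each array. Ly6a, which encodes Sca1, was not analysed here, and Mecom, a stem cell factor gene, was under background in all groups. Of 6 measured markers of mature lineage cells, Cd8a, Ms4a1 and Itgam had group means at or under background throughout. WT LIC replicate 3 stood apart from the other WT LIC arrays in several of the genes described here, so results that rest on it are given without it as well. The array was singled out after the values were seen, so calls gained without it have no independent standing. Array totals had been brought to a common scale, and the number of arrays limits the precision.

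In WT LICs 6 of the 9 genes were lower than in LSK cells, Pf4, Treml1, Nrgn, Gng11, Cavin2 and Gp9, and none was higher. Over all genes 2.15% were called lower in this comparison, 1.27% higher and 3.42% in either direction. At an unadjusted p under 0.05 the count was 7 of 9, with Vwf, beside 20.6% of all genes. The median difference of the 9 genes was -2.11, against 0.02 over all genes. The 9 genes were chosen with earlier results of these data known, so their contrast with all genes has no independent standing. The arrays of the 2 groups did not overlap for 7 of the 9, the 6 called genes and Vwf, beside 13.2% of all genes that lay lower without overlap. In Ezh2 KO LICs 3 of the 9, Pf4, Nrgn and Cavin2, were called lower than in LSK cells and none higher, beside 1.86% and 1.61% of all genes (3.47% in either direction). At an unadjusted p under 0.05 there were 8 of 9, all but Gp5, beside 19.2% of all genes. All 9 lay lower there without overlap, beside 20.5% of all genes, and their median difference was -1.71 (all genes -0.02). These comparisons share the LSK arrays, so they are not independent of each other. Without WT LIC replicate 3, which enters the pooled spread, 6 genes were called lower in Ezh2 KO LICs and 5 in WT LICs. Calls over all genes rose as well, to 2.87% and 3.08% called lower in these comparisons. Between Ezh2 KO and WT LICs none of the 9 was called, and over all genes 0.637% were, 0.589% higher and 0.0484% lower.

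**Figure D1:**
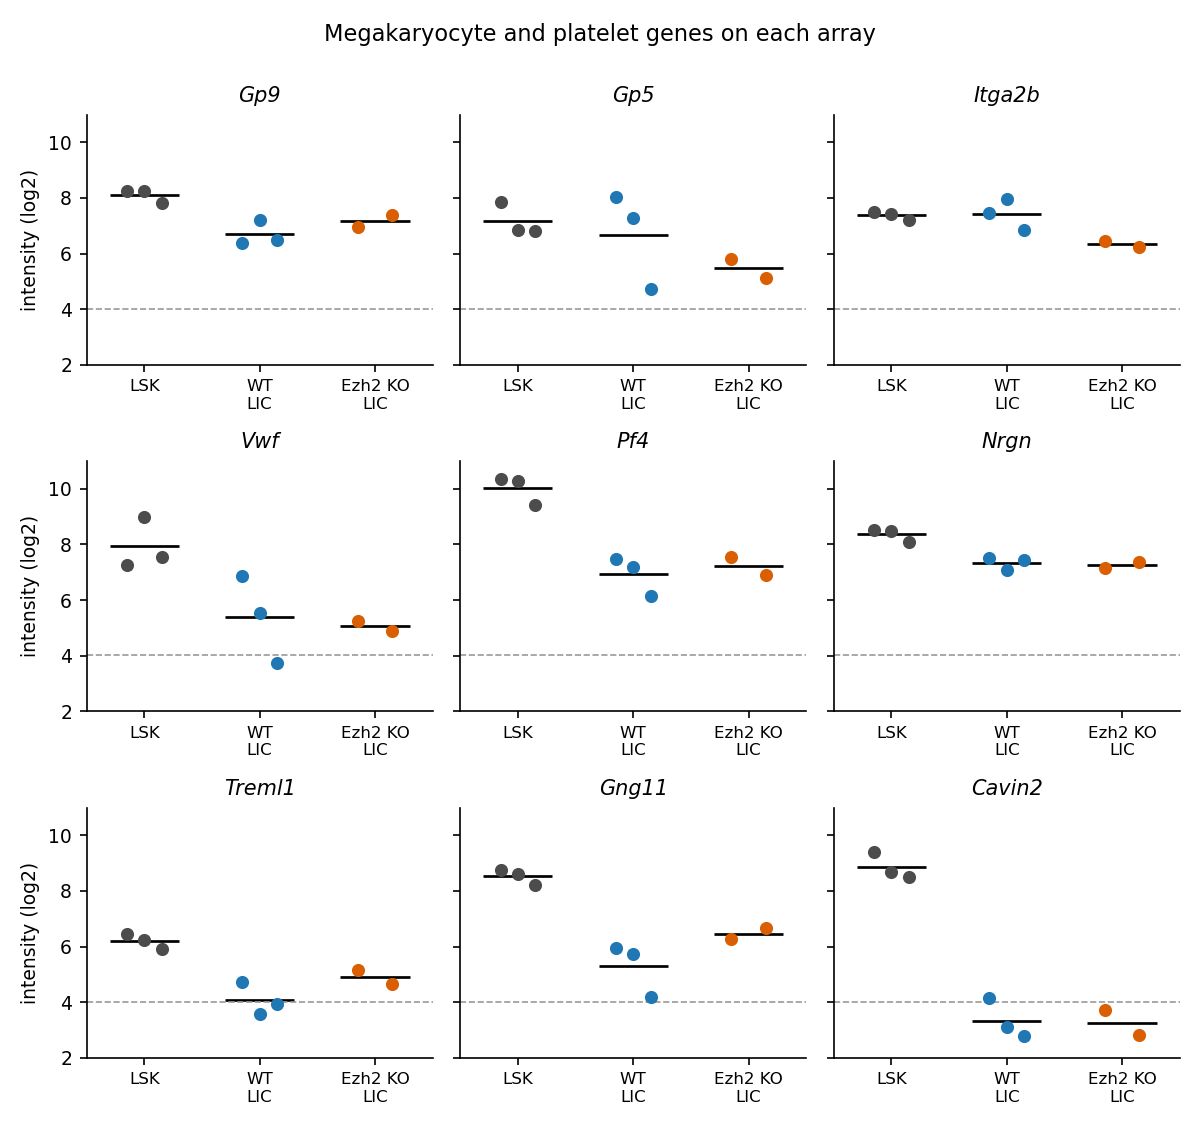
Intensity (log2) of each of the 9 genes on each array: every point is 1 array, the bar is the mean of the group (3 LSK, 3 WT LIC and 2 Ezh2 KO LIC arrays), and the dashed line is the background level of 4.01. Cavin2 lies between 8.49 and 9.40 in LSK cells and between 2.77 and 4.14 in LICs, while Itga2b overlaps between LSK cells and WT LICs.

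The promoter windows of 5 of the genes are shown. Of these, Pf4, Gp9 and Cavin2 were among the genes called lower in WT LICs, while Gp5 and Itga2b overlapped between WT LICs and LSK cells. Windows run from 250 bases before to 50 bases after the start of the gene in RefSeq (GRCm38.p6) and are written 5′ to 3′ on the strand of the gene, as listed for 7 of the 9 genes. Capitals mark the letters GATAA, part of the motif of GATA factors, and GGAAG, part of that of ETS factors, on either strand (TTATC and CTTCC on the other). Neither motif overlaps the other in these windows. The windows are Pf4 at chr5:90772185-90772484 (plus strand), Gp9 at chr6:87777820-87778119 (plus), Cavin2 at chr1:51288876-51289175 (plus), Gp5 at chr16:30310732-30311031 (minus) and Itga2b at chr11:102469834-102470133 (minus).
Pf4: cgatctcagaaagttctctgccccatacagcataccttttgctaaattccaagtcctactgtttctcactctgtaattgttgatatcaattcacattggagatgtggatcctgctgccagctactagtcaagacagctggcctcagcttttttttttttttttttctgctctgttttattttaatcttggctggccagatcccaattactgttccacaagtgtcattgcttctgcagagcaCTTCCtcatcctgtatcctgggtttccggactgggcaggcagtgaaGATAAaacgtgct
Gp9: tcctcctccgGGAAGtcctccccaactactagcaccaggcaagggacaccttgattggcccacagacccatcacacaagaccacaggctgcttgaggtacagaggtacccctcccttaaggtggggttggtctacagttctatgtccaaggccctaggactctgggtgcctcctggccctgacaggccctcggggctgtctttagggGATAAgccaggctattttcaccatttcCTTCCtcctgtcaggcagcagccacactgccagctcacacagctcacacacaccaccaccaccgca
Cavin2: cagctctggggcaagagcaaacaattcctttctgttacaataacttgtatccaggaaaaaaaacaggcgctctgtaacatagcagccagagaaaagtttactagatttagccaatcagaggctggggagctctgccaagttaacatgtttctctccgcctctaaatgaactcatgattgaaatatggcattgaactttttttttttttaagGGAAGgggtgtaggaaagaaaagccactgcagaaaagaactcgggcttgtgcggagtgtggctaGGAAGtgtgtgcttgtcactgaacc
Gp5: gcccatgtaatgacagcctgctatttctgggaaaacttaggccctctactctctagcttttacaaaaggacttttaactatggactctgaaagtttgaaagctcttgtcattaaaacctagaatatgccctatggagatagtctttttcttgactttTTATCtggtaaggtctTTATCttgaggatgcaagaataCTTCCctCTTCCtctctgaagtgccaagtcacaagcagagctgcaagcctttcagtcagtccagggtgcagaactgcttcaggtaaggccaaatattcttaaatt
Itga2b: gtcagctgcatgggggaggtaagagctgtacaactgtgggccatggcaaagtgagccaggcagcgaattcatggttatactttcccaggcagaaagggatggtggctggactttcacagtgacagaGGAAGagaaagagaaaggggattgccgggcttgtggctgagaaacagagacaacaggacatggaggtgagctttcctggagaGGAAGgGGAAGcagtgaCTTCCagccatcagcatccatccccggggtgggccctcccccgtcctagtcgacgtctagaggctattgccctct

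GGAAG or its reverse complement was found in each of the 7 windows and in 71.4% of the 32851 promoters of the same length, and GATAA in 3 of 7, Pf4, Gp9 and Gp5, and in 25.4% of all promoters. Pf4 had 1 GGAAG match, starting 9 bases before the gene's start, and 1 GATAA match after it. Gp9 had 1 GATAA match starting 43 bases before the start, between 2 GGAAG matches, and Gp5 had 2 of each upstream. Itga2b had 4 GGAAG matches and Cavin2 had 2, both with no GATAA in the window. Treml1 and Nrgn, also called lower in WT LICs but not shown, had 1 GGAAG match each and no GATAA. Gp5 was not called in any comparison, and Cavin2 had the largest differences from LSK cells. A match describes letters in this window and is no measure of binding.

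The members were taken in the order of their roles, first the receptors and their ligand. Gp9 encodes glycoprotein IX, a subunit of the von Willebrand factor receptor. It was at 8.26, 8.25 and 7.83 on the LSK arrays, 6.38, 7.19 and 6.49 on the WT LIC arrays and 6.95 and 7.40 on the Ezh2 KO arrays. Each LIC array was below each LSK array, and WT and Ezh2 KO LICs overlapped. Gp9 fell by 1.43 in WT LICs (SE 0.26, adjusted p = 0.0328, limma), a 2.69-fold difference. The call was lost without LSK replicate 1, 2 or 3 and without WT LIC replicate 1 or 3 (adjusted p = 0.0951, 0.092, 0.0614, 0.103 and 0.0554). In Ezh2 KO LICs the difference from LSK cells was -0.94 (SE 0.29, adjusted p = 0.131), which did not pass.

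Gp5 encodes glycoprotein V, which sits in the same receptor complex and is cleaved by thrombin. It did not follow Gp9. On the LSK arrays it was at 7.85, 6.85 and 6.82 and on the WT LIC arrays at 8.05, 7.26 and 4.74, so the WT LIC arrays spanned the LSK values and replicate 3 was below all of them. The Ezh2 KO arrays were at 5.81 and 5.13, under each LSK array. The difference was -0.49 for WT LICs (95% interval -2.35 to 1.36, adjusted p = 0.782, limma) and -1.71 for Ezh2 KO LICs (-3.78 to 0.36, adjusted p = 0.351). Without WT LIC replicate 3 the first of these turned to 0.48 (adjusted p = 0.578). The within-group standard deviation (SD) of Gp5, 1.17, was larger than that of 98.1% of all genes.

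Itga2b encodes the αIIb chain of the platelet fibrinogen receptor, which is also the CD41 antigen of early blood progenitors. It was at 7.51, 7.42 and 7.20 in LSK cells, at 7.47, 7.97 and 6.85 in WT LICs and at 6.44 and 6.25 in Ezh2 KO LICs. LSK cells and WT LICs overlapped, with a difference of 0.05 (95% interval -0.59 to 0.70, adjusted p = 0.941, limma), while both Ezh2 KO arrays were below all the others. Against LSK cells the knockout difference was -1.03 (SE 0.31, adjusted p = 0.121), and against WT LICs -1.09 (SE 0.31, adjusted p = 0.249). Neither passed over all genes. Without WT LIC replicate 3 the first had an adjusted p of 0.0433 and the second changed to -1.38 (adjusted p = 0.0507).

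Vwf encodes von Willebrand factor, the ligand of the Ib-IX-V complex. It was at 7.27, 8.99 and 7.53 on the LSK arrays, at 6.87, 5.55 and 3.72 on the WT LIC arrays and at 5.25 and 4.89 on the Ezh2 KO arrays. Every LIC array was below every LSK array, but WT LIC replicates 1 and 3 differed by 3.15, more than the mean difference between the groups. That difference was -2.55 (SE 0.79, adjusted p = 0.127) in WT LICs and -2.86 (SE 0.88, adjusted p = 0.13) in Ezh2 KO LICs. Neither passed, and the second had an adjusted p of 0.0467 without WT LIC replicate 3. The WT LIC difference was -1.72 without WT LIC replicate 3 (adjusted p = 0.162).

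Pf4 encodes platelet factor 4, a chemokine stored in α-granules. It was at 10.34, 10.29 and 9.42 in LSK cells, at 7.47, 7.18 and 6.14 in WT LICs and at 7.54 and 6.90 in Ezh2 KO LICs. Each LSK array was above each LIC array, and the WT and Ezh2 KO LIC arrays overlapped. Pf4 fell by 3.09 in WT LICs (SE 0.41, adjusted p = 0.0118, limma), an 8.5-fold difference that was called under all 19 alternatives. In Ezh2 KO LICs it fell by 2.80 (SE 0.46, adjusted p = 0.0252), or 6.97-fold. This second call was lost without LSK replicate 1 or 2 (adjusted p = 0.0707 and 0.0669) and without Ezh2 KO LIC replicate 1 or 2 (0.0784 and 0.131).

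Treml1 encodes a receptor of the α-granule membrane that reaches the surface of activated platelets. It was at 6.45, 6.22 and 5.92 in LSK cells, at 4.73, 3.58 and 3.95 in WT LICs, where 2 arrays were under background, and at 5.16 and 4.67 in Ezh2 KO LICs. Each LIC array was below each LSK array. It fell by 2.11 in WT LICs (SE 0.31, adjusted p = 0.0177), a size that depends on values near background, since it was -1.42 on the scale of log2 of the value plus 16 (adjusted p = 0.019). The call was lost without LSK replicate 1 or 2 (adjusted p = 0.0584 and 0.0594). In Ezh2 KO LICs the difference was -1.28 (SE 0.35, adjusted p = 0.0955).

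Gng11 encodes a γ subunit of heterotrimeric G proteins. Its levels were 8.77, 8.60 and 8.21 on the LSK arrays, 5.96, 5.73 and 4.19 on the WT LIC arrays and 6.27 and 6.65 on the Ezh2 KO arrays, in 3 separate ranges. Gng11 fell by 3.23 in WT LICs (SE 0.45, adjusted p = 0.0137, limma), or 9.39-fold, and was called under all 19 alternatives. The Ezh2 KO difference from LSK cells was -2.07 (SE 0.50, adjusted p = 0.0712), which did not pass. It did pass under 5 of the 19 alternatives, among them the fit without WT LIC replicate 3 (adjusted p = 0.00866).

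Nrgn encodes neurogranin, a calmodulin-binding protein best known from neurons, whose transcript human platelets also carry. It was at 8.51, 8.50 and 8.08 in LSK cells, at 7.52, 7.08 and 7.43 in WT LICs and at 7.17 and 7.35 in Ezh2 KO LICs. Its LIC arrays lay within 0.44 of each other, below each LSK array. Nrgn fell by 1.02 in WT LICs (SE 0.19, adjusted p = 0.0334) and by 1.10 in Ezh2 KO LICs (SE 0.21, adjusted p = 0.0369). Both calls were marginal. The first was lost under 8 of 19 alternatives (adjusted p up to 0.101), which included leaving out LSK replicate 1 or 2, WT LIC replicate 1 or 2 or either Ezh2 KO array. The second was lost under 10 (up to 0.167), which included leaving out LSK replicate 1 or 2, WT LIC replicate 1 or either Ezh2 KO array, and median centring and cyclic loess. Of 6 neuronal markers, Snap25, Syt1, Rbfox3 and Gap43 had group means at or under background in each group, and Camk2a was at 4.52 to 5.68 on each array. Tubb3, a neuronal tubulin gene, was at 3.45, 3.21 and 3.52 in LSK cells, 6.45, 5.86 and 4.06 in WT LICs and 4.21 and 4.15 in Ezh2 KO LICs. It was not called in WT LICs against LSK cells (difference 2.06, adjusted p = 0.0879) unless WT LIC replicate 3 was left out (2.76, adjusted p = 0.00307) or arrays were weighted. The part of neuronal transcripts in the Nrgn values was not tested.

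Cavin2 encodes a coat protein of caveolae that binds phosphatidylserine. It showed the largest difference of the 9 genes in both comparisons with LSK cells. The LSK arrays were at 9.40, 8.67 and 8.49, the WT LIC arrays at 4.14, 3.09 and 2.77 and the Ezh2 KO arrays at 3.70 and 2.83. Both LIC means were under the background level, so only a bound can be given. Cavin2 was at least 28.7-fold lower in WT LICs (adjusted p = 0.00146, limma) and at least 28.7-fold lower in Ezh2 KO LICs (adjusted p = 0.00255), with the same LSK mean and background behind both bounds. On the scale of log2 of the value plus 16 the differences were -4.17 and -4.21. Each call held under the 18 alternatives that kept the gene. A dimmer second probe set was at 5.91, 4.04 and 5.77 in LSK cells and between 2.23 and 2.62 on each LIC array. Tested on its own it differed by -2.80 in WT LICs (adjusted p = 0.0291 over all probe sets) and by -2.98 in Ezh2 KO LICs (adjusted p = 0.0337).

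**Figure D2:**
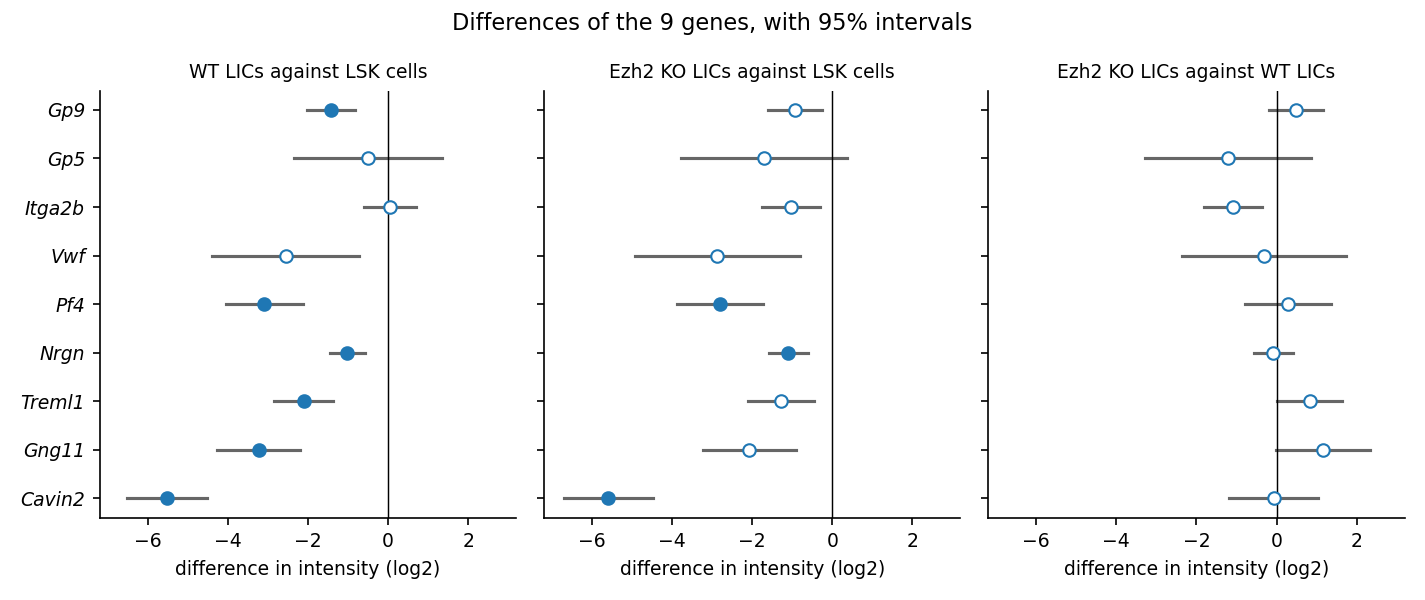
Difference in intensity (log2) of each gene in the 3 comparisons: points are limma estimates, lines are 95% intervals without adjustment for multiple tests, and filled points passed an adjusted p of 0.05. WT LICs had 6 filled points and Ezh2 KO LICs 3 against LSK cells, and no point is filled between Ezh2 KO and WT LICs.

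Because each array measured a sorted population in bulk, fewer cells carrying a transcript and less of it in each cell cannot be told apart. Cavin2, Vwf and Gng11 are also genes of vessel lining. Of 9 endothelial markers, Cdh5, Kdr and Cldn5 had group means at or under background in all groups, LSK cells included. Tie1 and Emcn, which stem cells express as well, were the 2 of these 9 called in WT LICs, beside 3.42% of all genes. They fell, Tie1 by 1.81 (adjusted p = 0.04, limma, a call lost under 12 of 19 alternatives) and Emcn by 3.02 (adjusted p = 0.0128, called under all 19). Tek was at 8.63, 9.84 and 8.86 in LSK cells and 7.14, 4.89 and 4.64 in WT LICs. Its difference, -3.55, did not pass (adjusted p = 0.0528, limma), except under 6 of 19 alternatives. Pecam1 and Egfl7, at 6.94 to 7.95 and 8.06 to 9.32 over the arrays, were not called. Plvap lay higher in WT LICs, by 0.58, and was not called (adjusted p = 0.219, limma). It was at 4.45, 4.38 and 4.33 in LSK cells, 5.53, 4.69 and 4.70 in WT LICs and 4.57 and 4.55 in Ezh2 KO LICs. In Ezh2 KO LICs against LSK cells 1 of the 9, Tie1, was called lower, beside 1.86% of all genes. The mean log2 level of the 9 markers was 6.20 to 6.43 in LSK cells, 5.27 to 5.43 in WT LICs and 5.38 to 5.67 in Ezh2 KO LICs. Of 7 measured genes of the gate and of stem cells, 2 were called lower in WT LICs, Kit and Hlf, beside 2.15% of all genes. In Ezh2 KO LICs 1 was, Kit, beside 1.86% of all genes. The rest, Procr, Mllt3, Slamf1, Cd34 and Mecom, were not called in either. Hlf, a transcription factor of stem cells, fell by 2.57 in WT LICs (adjusted p = 0.0124), and the 7 averaged 8.73 to 9.04 in LSK cells, 7.38 to 8.01 in WT LICs and 7.87 to 8.37 in Ezh2 KO LICs. Jchain, which antibody-secreting cells express, was at 10.40 to 11.19 in LSK cells and 3.76 to 5.44 in LICs. It was the 1 of 4 markers of those cells called lower in each of the LIC groups, beside 2.15% and 1.86% of all genes. Sdc1, at 9.91 to 10.74 in LSK cells, was at 6.61, 6.12 and 8.91 in WT LICs (adjusted p = 0.0507) and 9.63 and 9.16 in Ezh2 KO LICs. The mean of the 4 was 8.68 to 8.99 in LSK cells and 6.32 to 7.04 in LICs. Xbp1 and Prdm1 differed by 0.43 and -0.13 in WT LICs, so the lower mean there rests on Jchain and Sdc1. In Ezh2 KO LICs Prdm1 had a mean of 3.46, under background, against 4.49 in LSK cells, and Sdc1 9.39 against 10.42. The part of these other cells or genes in the lower platelet transcripts was not tested.

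Between Ezh2 KO and WT LICs the test found no call, in either direction and under any of the alternatives, and 2 of the 9 genes, Itga2b and Treml1, had an unadjusted p under 0.05 (0.00877 and 0.0468), beside 11.1% of all genes. Itga2b was lower in the knockout without overlap (16.6% of all genes were), and Gng11, at 6.27 and 6.65 against 4.19 to 5.96, was higher without overlap (13.2% of all genes were). Gng11 differed by 1.16 (95% interval -0.01 to 2.33, adjusted p = 0.452, limma) and Treml1 by 0.83 (0.02 to 1.65, adjusted p = 0.441). For Pf4 the interval ran from -0.78 to 1.35, for Nrgn from -0.57 to 0.40, for Gp9 from -0.19 to 1.16 and for Vwf from -2.37 to 1.74. Gp5 had an interval of -3.29 to 0.86. The interval of Nrgn stayed within 1 unit of 0 on both sides, and those of Pf4, Gp9, Vwf and Gp5 reached farther. No level can be compared for Cavin2, which was under background in both groups.

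WT LIC replicate 3 was the lowest of the WT LIC arrays for 6 of the 9 genes, Pf4, Itga2b, Vwf, Gng11, Cavin2 and Gp5, and the highest for none, beside 33.7% and 41.6% of all genes. Megakaryocytes and red cell precursors share a progenitor and the factor Gata1. Gata1 was at 8.38, 7.60 and 7.86 in LSK cells, 9.76, 9.33 and 6.17 on the WT LIC arrays and 8.26 and 8.04 on the Ezh2 KO arrays. The difference between WT LICs and LSK cells was 0.47 (adjusted p = 0.809, limma), and without WT LIC replicate 3, the lowest array, it was 1.60 (adjusted p = 0.0252). Its cofactor gene Zfpm1 was at 8.36, 7.67 and 5.56 in WT LICs and 6.31 and 6.93 in Ezh2 KO LICs. Gfi1b, a repressor needed for both lineages, was at 9.43, 9.06 and 7.80 and at 7.78 and 7.81. These 3 were picked after their values were seen. Over the 13 measured factor genes of the lineage replicate 3 was the lowest WT LIC array for 9 and the highest for 4, Fli1, Runx1, Mef2c and Mrtfa. Fli1 was at 9.31, 9.64 and 9.77 in WT LICs and 10.03 and 10.24 in Ezh2 KO LICs, Mef2c at 10.27, 10.96 and 11.26 and at 11.30 and 11.45, and Runx1 at 9.09, 9.17 and 10.48 in WT LICs.

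Klf1, the erythroid master regulator, was at 10.78, 9.81 and 4.89 on the WT LIC arrays, against 7.37 and 5.80 on the Ezh2 KO arrays and 7.23 to 7.82 in LSK cells. Ermap, an erythroid membrane protein gene, was at 11.42, 10.79 and 3.85 in WT LICs and at 6.61 and 4.93 in Ezh2 KO LICs, and Rhd, of the Rh blood group, at 9.85, 8.75 and 3.93 and at 4.55 and 3.48. Over the 10 measured erythroid markers the mean log2 level was 7.13 to 7.37 in LSK cells, 9.40, 8.72 and 5.35 on the WT LIC arrays, and 6.48 and 5.73 on the Ezh2 KO arrays. None of the 10 was called in any of the 3 comparisons (limma). At an unadjusted p under 0.05 there were 2 in WT LICs against LSK cells, 3 in Ezh2 KO against WT LICs and 2 in Ezh2 KO LICs against LSK cells, beside 20.6%, 11.1% and 19.2% of all genes. These counts rest on WT LIC replicate 3, the lowest WT LIC array for 9 of the 10. This array was singled out after these values were seen, so calls made without it have no independent standing. Without it 6 rose in WT LICs against LSK cells, Klf1, Epor, Rhd, Rhag, Ermap and Tfrc, beside 2.11% of all genes, among them Rhd by 3.08 (adjusted p = 0.0139) and Klf1 by 2.71 (adjusted p = 0.0342). Without it 5 of these, all but Tfrc, fell in Ezh2 KO against WT LICs, beside 0.412% of all genes, among them Rhag by 5.23 (adjusted p = 0.00334), and Car1, Rhag and Rhd fell in Ezh2 KO LICs against LSK cells, beside 2.87% of all genes. Hba-a1, an adult haemoglobin gene, was under background in each group. Whether the erythroid content of an array bears on Gp5, Itga2b or Vwf was not tested.

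**Figure D3:**
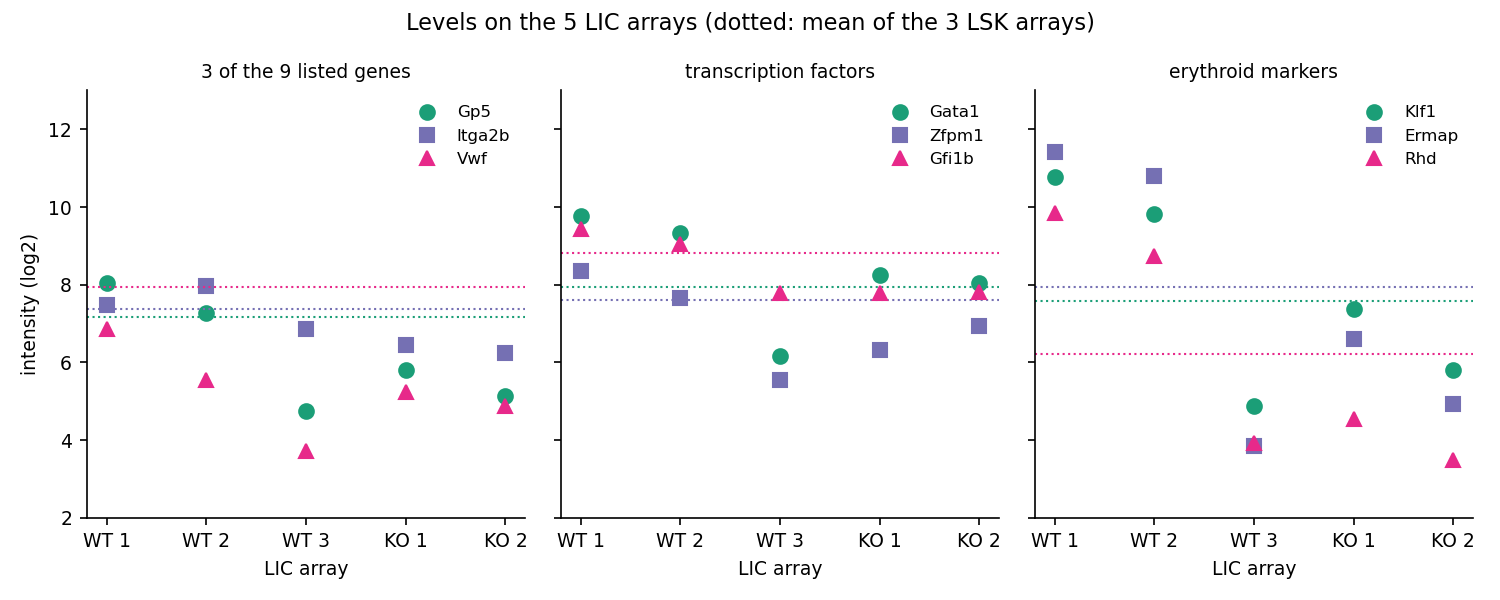
Intensity (log2) on the 5 LIC arrays (WT 1 to 3, Ezh2 KO 1 and 2) of Gp5, Itga2b and Vwf, of the transcription factor genes Gata1, Zfpm1 and Gfi1b, and of the erythroid genes Klf1, Ermap and Rhd: each marker is 1 array and each dotted line is the mean of the 3 LSK arrays for the gene of that colour. Gp5 is at 8.05 and 7.26 on WT 1 and 2 and between 4.74 and 5.81 on the other 3 arrays, and Klf1 at 10.78 and 9.81 and between 4.89 and 7.37.

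To place the 9 genes among others of the lineage, 56 more megakaryocyte and platelet genes were listed by role, of which 45 were measured. Of these 45, 4 were called in WT LICs against LSK cells, all lower, beside 2.15% of all genes, with a median difference of -0.42 against -2.11 for the 9 genes. In Ezh2 KO LICs 3 were called lower and 2 higher (median -0.42), beside 1.86% and 1.61% of all genes. Between Ezh2 KO and WT LICs none was called, and 5 of 45 had an unadjusted p under 0.05, near the 11.1% of all genes. Without WT LIC replicate 3 there were 3 lower and 2 higher calls in WT LICs, beside 3.08% and 2.11% of all genes in that fit. Both lists were drawn up with results of these data known, so their difference in size has no independent standing.

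Among 12 measured receptors and surface proteins none was called in WT LICs (median -0.68). F2r, which encodes the thrombin receptor PAR1, was listed by role, and whether mouse platelets carry it was not tested. F2r was the nearest, at 10.55 to 10.72 in LSK cells and 11.18 to 11.51 in WT LICs (difference 0.70, adjusted p = 0.0507, limma). It rose in Ezh2 KO LICs, to 11.50 and 11.74 (difference 0.97, SE 0.16, adjusted p = 0.0273), opposite in sign to the 9 genes, a call lost under 8 of 19 alternatives (adjusted p up to 0.139), among them leaving out any 1 LSK or Ezh2 KO array or WT LIC replicate 1. Itga2, a collagen receptor chain, was called lower in Ezh2 KO LICs (adjusted p = 0.049), but its group means were under background in all groups. Itgb3, the partner chain of Itga2b, was under background throughout, from 2.42 to 2.94. Pear1, a platelet contact receptor, had a mean of 10.65 in LSK cells and 9.64 in WT LICs (adjusted p = 0.0817).

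Of 6 granule and secreted proteins none was called in WT LICs (median -0.93). Ppbp, the precursor of platelet basic protein and a chemokine like Pf4, was at 6.04, 4.88 and 5.42 in LSK cells and 3.48, 4.53 and 4.14 in WT LICs (difference -1.39, adjusted p = 0.0835). Thbs1, thrombospondin 1, differed by -2.89 (adjusted p = 0.104, limma). It was at 7.19 on LSK replicate 2, at 4.48 and 3.53 on the other LSK arrays and at 2.10 to 2.27 in WT LICs. The WT LIC mean was under background, so its fold is only a bound, at least 2.08. Without LSK replicate 2 Thbs1 was called (adjusted p = 0.0493). Clu, clusterin, differed by -2.03 (adjusted p = 0.138). Sparc, osteonectin of the granules and of bone stroma, was at 7.93 and 8.19 in Ezh2 KO LICs, 5.32 to 5.83 in WT LICs and 5.70, 3.24 and 3.95 in LSK cells. The Ezh2 KO difference from WT LICs, 2.41, did not pass in the main fit (adjusted p = 0.206, limma). It passed without LSK replicate 1 (0.028) and where only the 2 compared groups were fitted. Over LSK cells Sparc rose by 3.77 in Ezh2 KO LICs (SE 0.63, adjusted p = 0.0267, limma). The Sparc call was lost under 6 of 19 alternatives (adjusted p up to 0.129), among them leaving out LSK replicate 3, WT LIC replicate 1 or either Ezh2 KO array.

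Of 14 genes of signalling, cytoskeleton and granule traffic, 3 fell in WT LICs and none rose (median -0.28). Over all genes 2.15% were called lower there and 1.27% higher. Tbxas1, the thromboxane synthase gene, was at 9.76, 9.81 and 9.55 in LSK cells, 8.12, 8.51 and 8.35 in WT LICs and 7.67 and 8.11 in Ezh2 KO LICs. It fell by 1.38 in WT LICs (SE 0.18, adjusted p = 0.0113) and by 1.82 in Ezh2 KO LICs (SE 0.20, adjusted p = 0.00762), each under all 19 alternatives. Plek, pleckstrin, fell by 1.20 in WT LICs (SE 0.22, adjusted p = 0.0348) and Rgs18, a regulator of G protein signalling in platelets, by 0.80 (SE 0.15, adjusted p = 0.0347). These calls were lost under 8 and 10 of 19 alternatives, among them leaving out any 1 LSK array or WT LIC replicate 1 or 2 (adjusted p up to 0.109 and 0.112). In Ezh2 KO LICs Plek was at 9.26 and 10.03, above the WT LIC arrays (8.40 to 8.82) and on both sides of the LSK arrays (9.76 to 9.97).

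Of 13 measured transcription factor genes 1 was called, lower in each LIC group than in LSK cells, beside 2.15% and 1.86% of all genes. Mrtfa, a coactivator of serum response factor in the megakaryocyte cytoskeleton programme, fell by 0.97 in WT LICs (SE 0.20, adjusted p = 0.0493) and by 1.25 in Ezh2 KO LICs (SE 0.22, adjusted p = 0.0319). These calls were lost under 12 and 8 of 19 alternatives, leaving out any 1 LSK array among them (adjusted p up to 0.137 and 0.147). Fli1, the ETS factor of megakaryocytes, differed by -0.55 in WT LICs (adjusted p = 0.135) and 0.01 in Ezh2 KO LICs (adjusted p = 0.98). Lmo2, which bridges GATA and TAL1 complexes, differed by -0.63 (adjusted p = 0.0553) and Meis1 by -1.15 (adjusted p = 0.12, or 0.0427 without WT LIC replicate 2) in WT LICs. Nfe2, needed for platelet release, lay between 10.59 and 11.24 on each array.

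**Figure D4:**
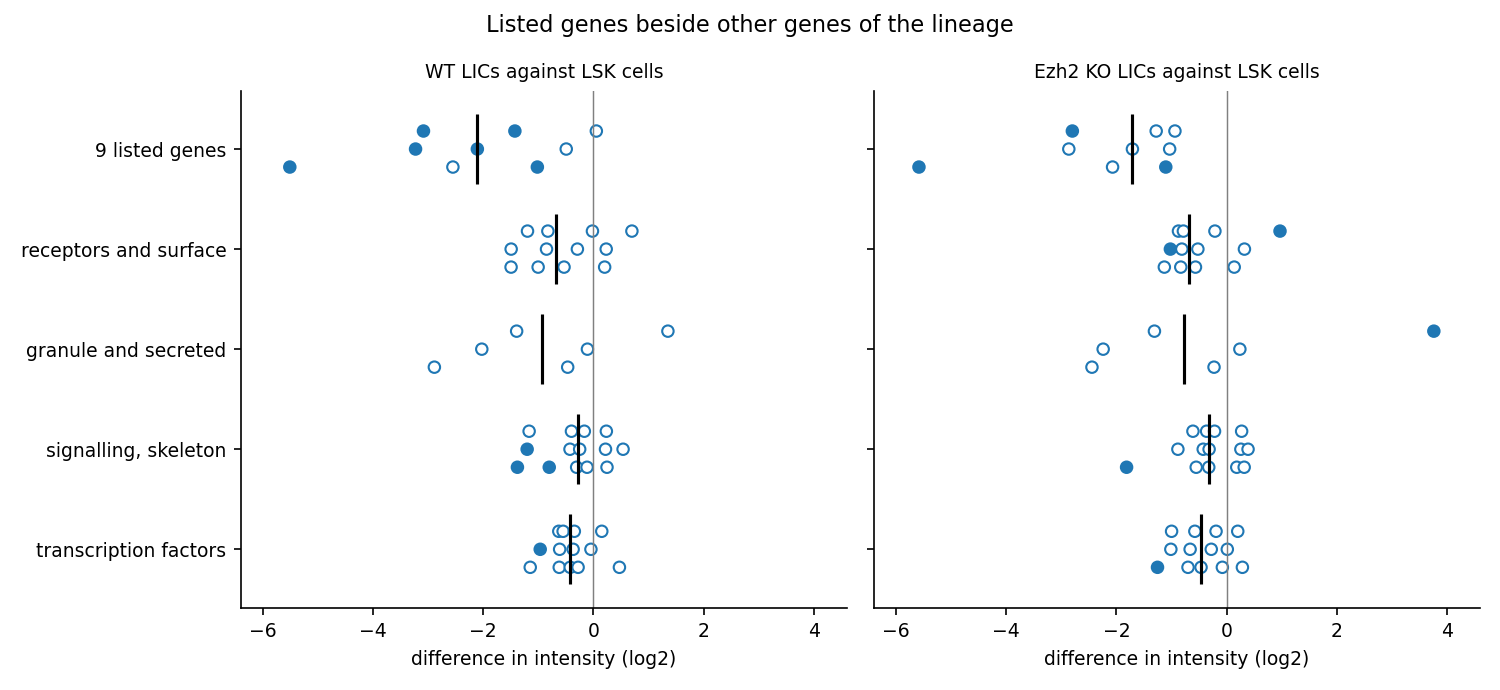
Difference in intensity (log2) of the 9 genes and of 45 other megakaryocyte and platelet genes by role, in WT LICs (left) and Ezh2 KO LICs (right) against LSK cells: each point is 1 gene, filled where the adjusted p was under 0.05, and the black bar is the median of the row. The medians in WT LICs run from -2.11 for the 9 genes to -0.28 for signalling and cytoskeleton genes, and Sparc is the point at 3.77 on the right.

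The genes whose pattern was closest to the mean pattern of the 9, by the root mean square difference of values centred over the 8 arrays, were Msl3l2 (0.32), Gstt1 (0.32), Zfp948 (0.37), Art4 (0.37) and Nsg1 (0.38). Gstt1, a glutathione transferase gene, had a mean of 7.80 in LSK cells, 5.95 in WT LICs and 5.89 in Ezh2 KO LICs, and Art4, which carries the Dombrock blood group in humans, 8.18, 6.02 and 6.03. Closest to Pf4 were Npr2 (0.43), Apoe (0.46) and Gm34703 (0.47). Apoe, the lipid carrier apolipoprotein E, was at 8.28, 5.21 and 5.83. Within the 9, Nrgn and Gp9 were the most alike pair (0.42) and Pf4 and Gng11 the next (0.47), while Itga2b and Cavin2 were the farthest apart (2.57).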

How the data were processed

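Gene expression was measured on Affymetrix arrays, 1 per sample. Per the labels' protocols, total RNA of cells sorted into lysis buffer was amplified by single-primer isothermal amplification and labelled with biotin. The authors deposited linear intensity values (1.94 to 19343, 22690 probe sets). The submitters' processing notes name RMA without a version, and no further step is stated there. Sorted log2 values differed between arrays by an SD of at most 0.08.

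Log2 was taken with no pseudocount (log2 values had been assumed in the design, and the test stayed the same). Of the probe sets, 64 were controls and 20380 had 1 gene symbol, of which 20351 matched RefSeq (GRCm38.p6) by gene number. The brightest stood for each of 12393 genes. limma 3.58.1 in R 4.3.3 (lmFit, eBayes) fitted all 3 groups in 1 model with group as its only term and 5 residual degrees of freedom, with Benjamini-Hochberg adjustment over all genes, and was tested on simulated data. An exact permutation test of groups this small cannot reach 0.05 (the smallest p is 0.1), so none was run. The members and lists were chosen with earlier results of these data known, and no p was computed for a list. Named were all members, each called gene of 4 lists of other lineage genes with up to 3 more by smallest p, the 5 genes most like the members and the 3 most like Pf4; further genes were chosen after their values were seen. A fold against a mean at or under background was taken against that level. No batch is given, so batch and group cannot be told apart. The 19 alternatives changed the scaling (median, quantile, cyclic loess), the filter (dim genes left out), the fit (trended prior, array weights, compared groups only, replicate block), the arrays (each left out once), the probe sets (averaged, or all tested) and the pseudocount (16).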

Additional observations from a re-analysis of the deposited data

How the results depend on the processing

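Of 507 values of single genes under the alternatives, 457 kept direction and side of the threshold, 29 lost the call, 7 gained one and 14 turned direction. Cavin2 kept its call in both comparisons with LSK cells under each of the 18 alternatives that kept the gene. Pf4, Gng11 and Tbxas1 kept theirs in WT LICs under each alternative. All values that turned were of differences that did not pass. In Ezh2 KO against WT LICs, Pf4 turned to -0.0607 with the replicate block, Nrgn to 0.0106 with cyclic loess and 0.0246 with array weights, and Cavin2 to 0.0041 with cyclic loess.

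Without single arrays, Itga2b and Gp5 in WT LICs against LSK cells ranged from -0.22 to 0.34 and from -1.18 to 0.48. In Ezh2 KO against WT LICs, Pf4 ranged from -0.11 to 0.61, Nrgn from -0.22 to 0.0016, Vwf from -1.14 to 0.43 and Cavin2 from -0.51 to 0.37. The count of called members ranged from 3 to 5 in WT LICs and from 1 to 6 in Ezh2 KO LICs against LSK cells. It was 3 without LSK replicate 1 or 2 in the first, and in the second 1 without either of these or either Ezh2 KO array and 6 without WT LIC replicate 3. The count over all genes ranged from 176 to 643 (main 424) in WT LICs against LSK cells, from 25 to 146 (main 79) in Ezh2 KO against WT LICs, and from 118 to 643 (main 430) in Ezh2 KO LICs against LSK cells. In the order of these comparisons it was 917, 119 and 575 with array weights, 541, 32 and 477 among genes above the 40th percentile, and 327, 35 and 319 in fits of the compared groups alone.

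With the replicate block the counts were 252, 36 and 147. Deviations of same-numbered arrays correlated at -0.05 to -0.02 over the 3 pairs of WT LICs and LSK cells. For the 2 pairs of Ezh2 KO and WT LICs the correlations were 0.02 and 0.14, and for Ezh2 KO LICs and LSK cells -0.02 and -0.01. The deviations of the 2 Ezh2 KO arrays mirror each other, so these correlations cannot settle whether the numbers pair the arrays. With the block the call of Nrgn was lost in both comparisons with LSK cells (adjusted p = 0.0824 and 0.102), and Gng11 was called in Ezh2 KO LICs (adjusted p = 0.0491).

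Median centring moved the median difference of all genes from 0.02 to 0.15 in WT LICs and from -0.02 to 0.11 in Ezh2 KO LICs against LSK cells, while higher calls went from 37.0% to 58.3% and from 46.5% to 66.6% of all calls. Cyclic loess took the latter share to 57.3%. The differences of the called members stayed negative under each scaling. Where a call changed, the cause was not tested. Groups of 2 or 3 arrays limit what could pass.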
